A study of Homo sapiens with 3 samples.

Results

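Splicing factors and spliceosome proteins were the 80 genes, of 27574 in the count table, whose symbols name an SR protein (SRSF), an hnRNP (HNRNP), a subunit of SF3A or SF3B, a protein of a small nuclear ribonucleoprotein (SNRP and SNRNP), U2AF1 or U2AF2, or a pre-mRNA processing factor (PRPF). The naming rule left out symbols that end in P and digits, as pseudogene names do. The 7 SNRNP symbols have that form too, but the rule names them itself, so they were kept. The rule reads symbols and uses no value of the table.

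The study measured the transcriptome of cells called H82R, labelled as the small cell lung cancer line H82 from ATCC, by RNA sequencing of 3 libraries; what the R stands for is not stated. All 3 libraries carry the same labels: human small cell lung cancer cells of lung origin, given as a tumor treated with etoposide plus cisplatin, a drug pair that blocks topoisomerase II and crosslinks DNA. Total RNA was taken with TRIzol from cells grown in RPMI medium with fetal bovine serum. Neither the untreated parental line nor any other group was analysed here, so the data give levels in H82R and the spread between libraries, and no effect of a treatment. Whether each library is a culture of its own is not stated, so p-values measure only the spread between these libraries, which may be technical.

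Splicing removes introns in a series of steps carried out by the spliceosome. The U1 particle binds the 5′ splice site, U2AF and the U2 particle recognise the 3′ splice site and the branch point, and the U4/U6.U5 tri-snRNP then joins to form the catalytic core. Each major particle except U6 carries a ring of Sm proteins around its RNA. SR proteins bind exonic enhancers and recruit the core machinery, while hnRNPs coat nascent RNA and often block splice sites, so the balance between both families sets many alternative exons.

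Read totals were 25013265, 42610181 and 23868201 counts in replicates 1, 2 and 3. Counts were scaled to CPM, the count in each 1000000 counts of the library, and 14612 genes that reached 10 counts in all 3 libraries were taken as detected. The median detected gene had 25.2 CPM. CPM are not divided by gene length, so members are set against each other per kilobase (kb) of annotated exon, with the union of all annotated exons as the length, and calls against the median gene are given on both scales. Of the fixed neuroendocrine markers, 6 of 6 were detected, with summed levels of 1233 to 1244 CPM. INSM1 was the lowest of them at 10.3, 8.70 and 9.01 CPM in replicates 1, 2 and 3, under the median gene. The summed levels of haematopoietic, endothelial, fibroblast and other lung epithelial markers stayed at or below 11.0, 1.54, 1.05 and 1.34 CPM. Of these, CD3E (136, 424 and 179 counts), PECAM1, VWF, COL1A1 and TP63 (14, 45 and 32 counts) were detected, and KRT5, SFTPC and SCGB1A1 had 0 counts. In bulk RNA, fewer cells with a transcript and less RNA per cell cannot be told apart.

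Some members have near-identical copies, and their counts depend on how shared reads were assigned, so this sharing comes first. U2AF1 (chr21:43092956-43107587, minus strand, GRCh38) encodes the small U2AF subunit that reads the AG at the 3′ splice site. U2AF1L5, annotated at chr21:6484623-6499261, has the same coding sequence over all 720 bases. The first 120 coding bases of the GENCODE transcripts carry no difference, so no letter is in capitals:
U2AF1: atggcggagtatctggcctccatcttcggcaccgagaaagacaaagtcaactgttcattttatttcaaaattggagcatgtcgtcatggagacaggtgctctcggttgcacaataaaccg
U2AF1L5: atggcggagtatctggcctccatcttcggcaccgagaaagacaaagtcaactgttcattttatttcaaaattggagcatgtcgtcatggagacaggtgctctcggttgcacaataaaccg
HNRNPA1 (chr12:54280193-54287088, plus strand) and its relative HNRNPA1L2 (chr13:52642425-52643796, plus strand) had 945 of 960 coding bases in common, 98.4%. Of the 50-base windows along the HNRNPA1 coding sequence, 93.7% also occurred in other annotated genes elsewhere, 55 genes in all, of which 53 are pseudogenes.

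Promoters of 3 members show the motifs counted further on. They are the 250 bases before the RefSeq start site (GRCh38.p14) of the Sm protein gene SNRPB (chr20:2470790-2471039, minus strand), the U2 particle gene SF3A1 (chr22:30356895-30357144, minus strand) and the SR protein gene SRSF3 (chr6:36594112-36594361, plus strand). Capitals mark an ETS motif (CCGGAAG) in SNRPB and SF3A1, a GC box (GGGCGG) in SF3A1, and a TATA box (TATAAA) and CCAAT boxes on both strands in SRSF3:
SNRPB: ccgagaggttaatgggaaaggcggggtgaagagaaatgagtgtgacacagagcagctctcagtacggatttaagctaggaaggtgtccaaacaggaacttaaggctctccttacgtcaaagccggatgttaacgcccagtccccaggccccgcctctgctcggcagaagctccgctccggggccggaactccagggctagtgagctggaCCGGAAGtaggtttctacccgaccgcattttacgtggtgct
SF3A1: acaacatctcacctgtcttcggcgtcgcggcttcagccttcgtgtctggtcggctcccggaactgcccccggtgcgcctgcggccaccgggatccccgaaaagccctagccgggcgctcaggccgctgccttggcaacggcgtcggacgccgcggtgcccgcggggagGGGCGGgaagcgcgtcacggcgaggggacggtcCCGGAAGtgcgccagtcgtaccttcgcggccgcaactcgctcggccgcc
SRSF3: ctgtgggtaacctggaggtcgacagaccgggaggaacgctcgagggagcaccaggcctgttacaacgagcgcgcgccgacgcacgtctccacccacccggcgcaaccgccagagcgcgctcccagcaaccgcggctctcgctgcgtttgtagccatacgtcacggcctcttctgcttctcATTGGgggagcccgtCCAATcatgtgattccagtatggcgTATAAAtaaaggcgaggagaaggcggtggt
RefSeq promoters were matched for 70 members.

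Of the 80 members, 76 were detected and 67 of these, 88.2%, lay above the median detected gene of the same library, against 45.9% of all detected genes (limma-trend, Benjamini-Hochberg adjusted over all detected genes). Another 8 members, 10.5%, lay below it, against 46.1% of all detected genes. Because members that passed the detection filter had to reach a minimum count, these shares cover the 76 detected members only. The 8 genes below were the SR protein gene SRSF12, the hnRNP gene HNRNPA1L2, the Sm paralog SNRPN, U2AF1, the second step factor PRPF18, the tri-snRNP gene SNRNP27 and the minor spliceosome genes SNRNP25 and SNRNP35. PRPF40B could not be told from the median gene, and HNRNPCL1, HNRNPCL2, HNRNPCL3 and HNRNPCL4 were not detected.

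The median detected member had 173 CPM, which is 2.77 above the median gene on the log2 scale, and 49 members had 100 CPM or more. Members took 1.88%, 1.76% and 1.94% of all counts in replicates 1, 2 and 3. Per kb of exon, the median member had 36.5 CPM per kb and the median detected gene 5.59 CPM per kb. On that scale 66 members, 86.8%, lay above the median gene, against 45.3% of the 13527 detected genes with a known length, and 7 members, 9.21%, lay below, against 45%. HNRNPUL2, above in CPM, and HNRNPA1L2 and SNRNP27, below in CPM, were not distinguished per kb, and PRPF40B lay below per kb. By CPM, 42 members, 55.3%, were in the top 10% of detected genes, a class that holds 10% of all genes, and by CPM per kb 48 were among the top 1352.

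**Figure D1:**
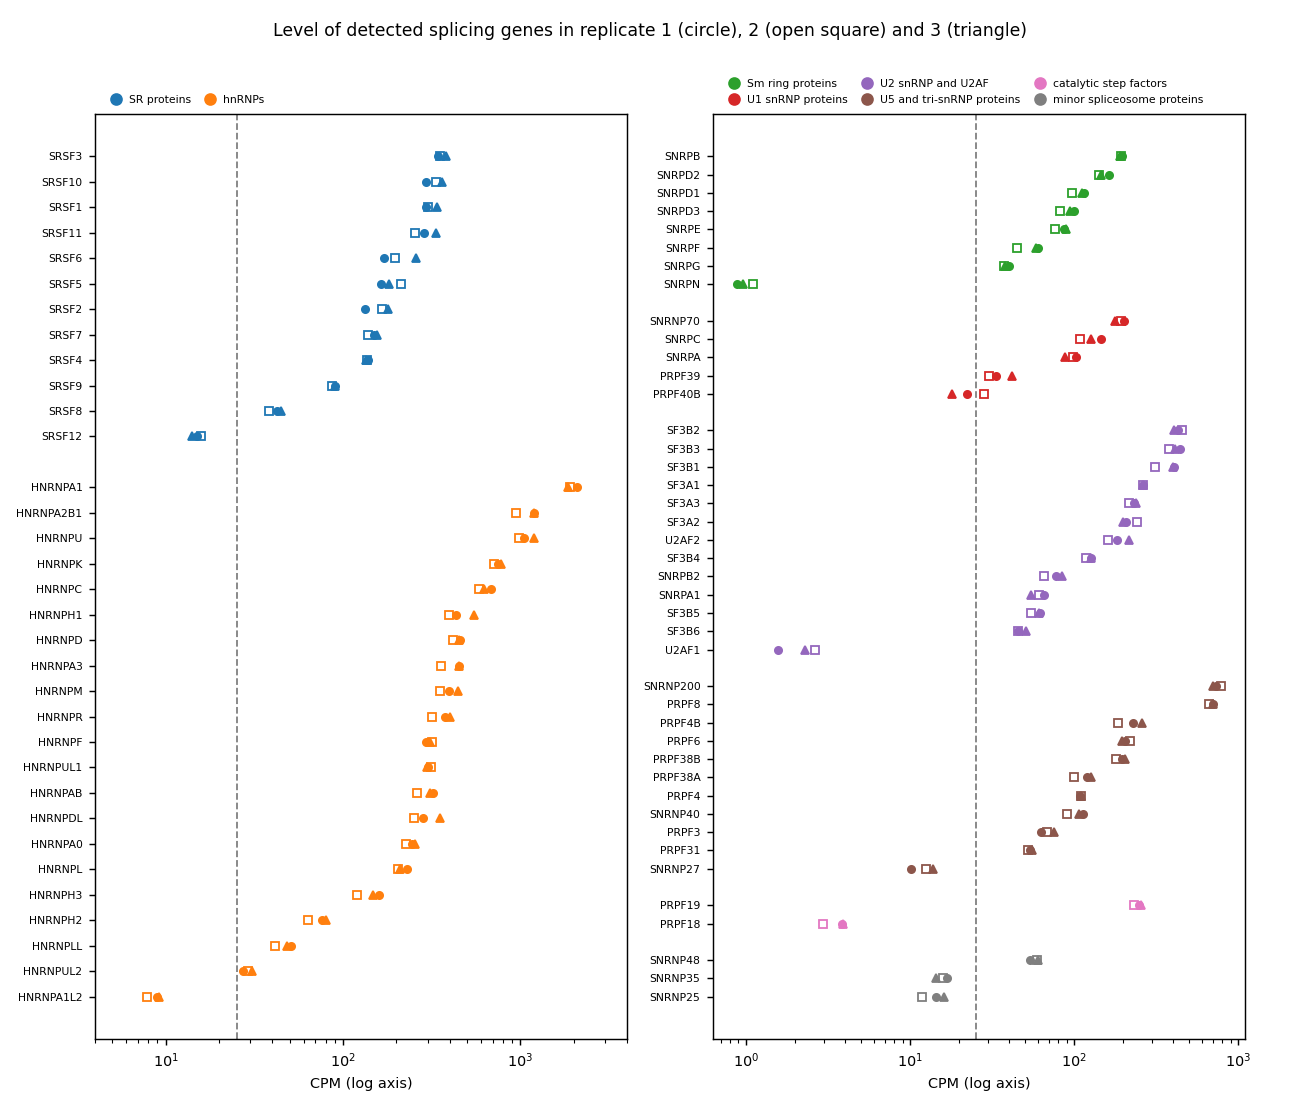
CPM (log axis) of detected members in each of the 3 libraries, grouped by role and ordered within each group by mean, with replicate 1 as a circle, replicate 2 as an open square and replicate 3 as a triangle. The dashed line is the median detected gene at 25.2 CPM. Most members lie to its right, HNRNPA1 is the farthest right in the left panel, and SNRPN, U2AF1 and PRPF18 are the farthest left in the right panel.

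All 12 SR protein genes were detected, and 11 of them lay above the median gene. Values below are CPM in replicates 1, 2 and 3 in that order. SRSF3, the smallest SR protein, which also links mRNA to nuclear export, was at 343, 354 and 379.8 CPM, 3.83 above the median gene on the log2 scale (SE 0.068, adjusted p = 1.64e-09). SRSF1, the founding SR protein, was at 292, 303 and 337 CPM. SRSF2, a splicing factor recurrently mutated in myeloid malignancies, was at 132, 166 and 178 CPM, and replicate 1 was the lowest for all 3 genes. Per kb of exon, SRSF1 had 93.1 ± 7.02 CPM per kb (SD, n = 3), the most of the SR genes, SRSF2 had 52.6 ± 7.89 and SRSF3 had 50.4 ± 2.65. On the scale of coding sequence SRSF3 was above SRSF1, at 596 against 381 CPM per kb, so their order depends on the length used.

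SRSF6 had the widest spread of the SR genes, with 169.8, 198 and 258 CPM and an SD of 0.31 on the log2 scale. Its relative SRSF4, another SR protein with 2 RNA recognition motifs, was at 139, 137 and 135 CPM, so its 3 libraries nearly coincided. The SRSF4 to SRSF6 count ratio was therefore 0.817, 0.691 and 0.525 in the 3 libraries. SRSF5, another gene of that branch, was at 165, 214 and 182 CPM, highest in replicate 2 where SRSF6 was highest in replicate 3. SRSF7, which like SRSF3 takes part in export, was at 150.2, 139 and 155 CPM, and the SRSF3 to SRSF7 ratio was 2.28, 2.55 and 2.45 in counts and 1.30, 1.45 and 1.39 per kb of exon, above 1 on both scales in every library.

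SRSF10, an SR protein that represses splicing when dephosphorylated, was at 292, 336 and 363 CPM. SRSF12, its paralog, was at 15.1, 15.8 and 14.1 CPM, below the median gene (log2 difference -0.74, SE 0.10, adjusted p = 1.70e-04). The groups of 3 values did not overlap: SRSF10 counts were 19.3, 21.2 and 25.7 times those of SRSF12, and 8.56, 9.39 and 11.4 times per kb. SRSF8, which arose as a retrotransposed copy of SRSF2, was at 42.6, 38.5 and 45 CPM. In the alignment of its coding sequence with that of SRSF2, 561 of 849 columns were identical, 66.1%. Of the others, 189 were gaps and 99 were mismatches. SRSF11 was at 288, 255 and 333 CPM and SRSF9 at 89.7, 86.6 and 89.9 CPM. Of the exon bases of SRSF9 and SRSF2, 46.2% and 36.7% overlap antisense genes, and without a stated strand setting those reads cannot be assigned to a strand.

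Of the 25 hnRNP genes, 20 lay above the median gene, 1 lay below and 4 were not detected. HNRNPA1, a shuttling protein that silences exons, was at 2079, 1904 and 1867 CPM (1950.1 ± 113 CPM, SD, n = 3), rank 26 among all detected genes by CPM and 6.28 above the median gene on the log2 scale (adjusted p = 1.43e-09). HNRNPA2B1, its paralog and a reader of RNA trafficking elements, was at 1201, 950.3 and 1189 CPM. HNRNPU, a nuclear matrix protein that binds chromatin and RNA, was at 1056, 981 and 1202 CPM. These were the 3 members above 1000 CPM, and per kb of exon they had 383 ± 22.2, 120.2 ± 15.3 and 48.0 ± 5.01 CPM per kb (SD, n = 3), so HNRNPU was the lowest of the 3 on that scale. The HNRNPA1 to HNRNPA2B1 ratio was 1.73, 2.0 and 1.57 in counts. HNRNPA3 was at 449, 359 and 449 CPM, and 89.8% of its coding windows also occur elsewhere, in pseudogenes.

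HNRNPA1L2 was at 8.98, 7.82 and 9.22 CPM, below the median gene (log2 difference -1.53, SE 0.12, adjusted p = 4.10e-06). HNRNPA1 had 232, 244 and 202 times as many counts, and the coding sequences differ at 15 positions. How reads that match both were assigned is not given in the sources used here, so the HNRNPA1L2 value is uncertain.

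HNRNPC, which binds uridine tracts and packages nascent RNA, was at 686, 585 and 623 CPM. Of its coding windows, 52.7% also occur in genes elsewhere. The HNRNPC-like genes HNRNPCL2, HNRNPCL3 and HNRNPCL4 had 0 counts in every library, which by counting error alone allows a level of at most 0.121, 0.0702 and 0.125 CPM in the 3 libraries (3 counts). HNRNPCL1 had 1 count in replicate 2 and 0 in the others. HNRNPCL3 and HNRNPCL4 agree at 878 of 879 coding bases. HNRNPCL1 and HNRNPC agree at 830 of 918 alignment columns, 90.4%, with 42 gap columns and 46 mismatches. Between 52.3% and 94.0% of the coding windows of the 4 genes recur elsewhere. How such shared reads were assigned is not given, so the bound on the level holds only if they were counted under these names.

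HNRNPK, which binds cytidine-rich sequence, was at 751, 707 and 775 CPM. The HNRNPC to HNRNPK ratio was 0.913, 0.828 and 0.804 in counts and 0.639, 0.579 and 0.563 per kb of exon, but its mean was 1.22 per kb of coding sequence, so the order of this pair depends on the length used. HNRNPD, which binds AU-rich elements and promotes decay, was at 459, 417 and 452 CPM and its paralog HNRNPDL at 282, 253 and 352 CPM. HNRNPDL was highest in replicate 3, and the HNRNPD to HNRNPDL ratio was 1.63, 1.65 and 1.28. HNRNPAB was at 324, 262 and 308 CPM and, per kb of exon, at 139 ± 15.0 CPM per kb, next to HNRNPK at 146 ± 6.74.

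Among the hnRNPs that bind runs of guanosine, HNRNPH1 was at 436, 397 and 548 CPM and HNRNPH2 at 76.2, 63.9 and 80.7 CPM. HNRNPF was at 295, 317 and 308 CPM and HNRNPH3 at 159.7, 119 and 147 CPM. HNRNPH1 exceeded HNRNPH2 in counts by 5.72, 6.22 and 6.79 times and per kb of exon by 1.34, 1.46 and 1.59 times. Per kb of coding sequence the mean ratio was 5.50. The HNRNPF to HNRNPH1 ratio was 0.676, 0.798 and 0.562 in counts and 1.97, 2.33 and 1.64 per kb of exon, and its mean was 0.823 per kb of coding sequence, so HNRNPF was the higher on the exon scale only.

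HNRNPL, which binds CA repeats, was at 230.4, 204 and 209 CPM. HNRNPLL, a paralog known for CD45 splicing in lymphocytes, was at 50.7, 41.5 and 48.2 CPM, and the HNRNPL to HNRNPLL ratio was 4.54, 4.92 and 4.33, above 1 per kb as well. HNRNPM was at 395, 351 and 443 CPM and HNRNPR at 378, 317 and 403 CPM, both lowest in replicate 2. HNRNPA0 was at 244, 228 and 253 CPM. In the HNRNPU branch, HNRNPUL1 was at 302, 314 and 299.7 CPM. The HNRNPU to HNRNPUL1 ratio was 3.49, 3.12 and 4.01 in counts and 1.02, 0.907 and 1.17 per kb of exon. Its mean was 3.57 per kb of coding sequence. HNRNPUL2 was at 27.3, 29.1 and 30.8 CPM, 0.21 above the median gene with an adjusted p of 0.0491, a call that was lost without replicate 2 or without replicate 3 and turned to a log2 difference of -0.10 when detection required 1 CPM in every library. Of its coding windows, 96.4% lie in the overlapping readthrough gene HNRNPUL2-BSCL2, which had 1, 0 and 0 counts.

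Of the 8 Sm genes, 7 lay above the median gene. SNRPB encodes SmB/B′ and was at 195, 193 and 191 CPM, with 3 nearly equal libraries. SNRPD1 was at 114, 97.3 and 111 CPM, SNRPD2 at 163, 142 and 147 CPM and SNRPD3 at 100.5, 82.2 and 94.6 CPM. SNRPE was at 86.3, 76.7 and 89.2 CPM, SNRPF at 59.9, 44.8 and 58.8 CPM and SNRPG at 40.3, 37.2 and 37.8 CPM. Replicate 2 was the lowest library for 6 of the 8 Sm genes, against 36.4% of all detected genes, and replicate 1 the highest for 6, against 31.1%.

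The Sm proteins form a ring with 1 copy of each, but their transcripts did not lie at 1 level. Per kb of exon, SNRPB had 151 ± 1.62 CPM per kb (SD, n = 3), SNRPD2 93.7 ± 7.01, SNRPE 57.0 ± 4.42 and SNRPD3 36.3 ± 3.68. SNRPD1 had 21.9 ± 1.85, SNRPG 21.4 ± 0.909 and SNRPF 17.9 ± 2.77 CPM per kb, with SNRPD1 and SNRPG less than 1 SD apart. Per kb of coding sequence the 7 genes ran from 99.4 (SNRPF) to 397 (SNRPD2) CPM per kb, and the SNRPD1 to SNRPD3 ratio, 0.590, 0.614 and 0.609 per kb of exon, had a mean of 1.37 per kb of coding sequence. SNRPE and SNRPG have pseudogenes that hold 81.9% and 73.7% of their coding windows.

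SNRPN (chr15:24823637-24978723, plus strand), the imprinted SNRPB paralog of brain in the Prader-Willi region, had 22, 47 and 23 counts, which is 0.886, 1.10 and 0.960 CPM. It lay below the median gene (log2 difference -4.59, SE 0.19, adjusted p = 1.01e-07). SNRPB had 221, 176 and 199 times its counts. The coding sequences match at 568 of 720 alignment columns, 78.9%, with 27 gap columns and 125 mismatches. No 50-base window of SNRPN occurs elsewhere. On the same strand, however, 94.6% of its windows lie in overlapping annotated genes, among them SNURF with 3, 13 and 6 counts and SNHG14, so a read there can be left out or assigned to another name, depending on the counting.

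The U1 particle recognises the 5′ splice site through U1 RNA and 3 specific proteins. SNRNP70, the U1-70K protein, was at 203, 193 and 178 CPM, SNRPA, the U1 protein A, at 103, 97.9 and 88.2 CPM and SNRPC, the U1 protein C, at 145, 109 and 127 CPM. The SNRPA to SNRNP70 ratio was 0.509, 0.508 and 0.497 in counts and 1.01, 1.01 and 0.986 per kb of exon. Its mean was 0.782 per kb of coding sequence, so it was close to 1 on the exon scale only. SNRPC had 99.5 ± 13.9 CPM per kb of exon, against 40.8 ± 2.71 for SNRNP70 (SD, n = 3).

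PRPF39 and PRPF40B are homologs of yeast U1 proteins. PRPF39 was at 33.6, 30.3 and 41.8 CPM. PRPF40B was at 22.3, 28.4 and 18.0 CPM, highest in replicate 2. Its SD on the log2 scale, 0.33, was among the 5 largest of the members. PRPF40B differed from the median gene by -0.16 (log2, SE 0.13, adjusted p = 0.291). It lay below the median gene without replicate 2, with a log2 difference of -0.32, and the difference turned to 0.09 without replicate 3. Antisense genes overlap 48.7% of its exon bases.

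In the U2 particle and its recruiter U2AF, 12 of 13 genes lay above the median gene. SF3B1, the subunit that grips the branch point duplex and is recurrently mutated in cancer, was at 408, 309 and 402 CPM. SF3B2 was at 427, 453 and 405 CPM and SF3B3 at 444, 381 and 412 CPM, so SF3B1 was lowest in replicate 2 where SF3B2 was highest. SF3B4, a subunit next to the branch point, was at 127, 118 and 127 CPM. The small subunits SF3B5 and SF3B6 had means of 59.1 ± 3.78 and 47.4 ± 2.84 CPM (SD, n = 3). The SF3B genes ran, per kb of exon, from 33.2 (SF3B3) to 85.2 (SF3B5) CPM per kb, and the SF3B2 to SF3B4 ratio was 3.35, 3.85 and 3.19 in counts, 0.769, 0.883 and 0.731 per kb of exon and, as a mean, 1.64 per kb of coding sequence.

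SF3A1 had the smallest spread of these genes, at 261, 264 and 264 CPM, and SF3A2 and SF3A3 were at 208, 240.3 and 198 and 230.3, 216 and 239.5 CPM. These 3 proteins form the SF3A complex that bridges U2 to the branch region. Their levels per kb of exon were 41.6 ± 0.270, 68.7 ± 7.10 and 48.2 ± 2.54 CPM per kb (SD, n = 3). The U2-specific proteins SNRPA1 and SNRPB2 were at 65.3, 61.3 and 54.5 and 77.2, 65.9 and 85 CPM. Their ratio was 0.845, 0.930 and 0.641, below 1 in every library. Of the SNRPA1 coding windows, 58.1% also occur elsewhere, in pseudogenes, against 14.2% for SNRPB2, so this ratio depends on how shared reads were assigned.

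U2AF2, which binds the polypyrimidine tract, was at 183, 162 and 216 CPM. U2AF1, its partner, had 39, 113 and 55 counts, or 1.57, 2.64 and 2.30 CPM, and the largest SD of the detected members on the log2 scale, 0.38. It lay below the median gene (log2 difference -3.52, SE 0.20, adjusted p = 4.52e-07). U2AF2 had 117, 61.1 and 94.0 times its counts. U2AF1L5, the identical copy printed above, had 362, 734 and 407 counts, which is 9.28, 6.5 and 7.40 times those of U2AF1. Summed, both names gave 16.1, 19.8 and 19.3 CPM, or 0.0882, 0.123 and 0.0894 of the U2AF2 counts. Every 50-base window of U2AF1 occurs in U2AF1L5, and the RefSeq promoters of U2AF1 and of its copy LOC102724594 agree at 299 of 300 bases. The deposited counts hold only what was assigned to each name, so the level of U2AF1 itself cannot be told apart from the assignment of shared reads.

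**Figure D2:**
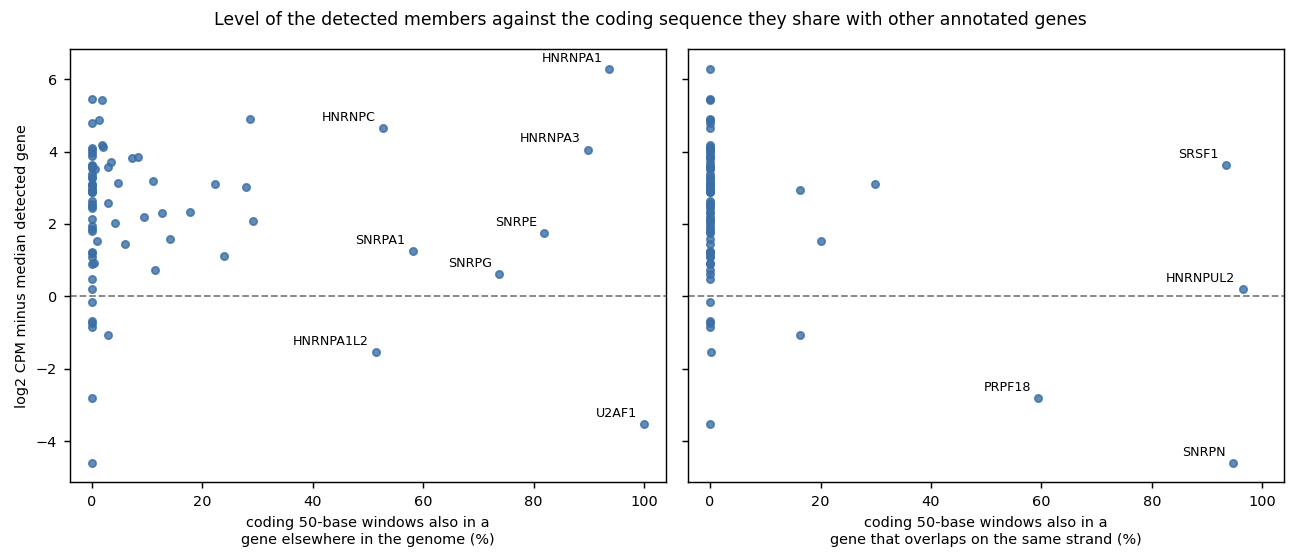
Level of the 76 detected members (vertical axis, log2 CPM minus the median detected gene) against the share of their coding 50-base windows that also occur in a gene elsewhere in the genome (left) or in a gene that overlaps on the same strand (right). U2AF1 stands at 100% on the left at -3.52, and SNRPN at 94.6% on the right at -4.59, while HNRNPA1 at 93.7% on the left and SRSF1 at 93.4% on the right lie far above the line at 0.

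Over all members, 16 had at least 50% of their coding windows in another annotated gene, 12 elsewhere and 4 in an overlapping gene. Of these, 8 lay above the median gene, 4 below (HNRNPA1L2, PRPF18, SNRPN and U2AF1) and 4 were not detected. Of the other 64 members, 59 lay above, 4 below (SNRNP25, SNRNP27, SNRNP35 and SRSF12) and 1, PRPF40B, was not distinguished. SRSF1, with 93.4% of its windows in the overlapping gene AC015813.2, lay 3.63 above, so a large overlap did not go with a low count for every gene. The part of read assignment in the low values was not tested.

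The U5 particle and the tri-snRNP bring the catalytic core, and 10 of their 11 genes lay above the median gene. PRPF8, the protein that cradles the active site, was at 701, 661 and 706 CPM. SNRNP200, the helicase that unwinds U4 from U6, was at 732, 786 and 704 CPM, and the PRPF8 to SNRNP200 ratio was 0.958, 0.840 and 1.0. Per kb of exon PRPF8, SNRNP200 and PRPF6 had 60.7 ± 2.17, 67.8 ± 3.81 and 67.9 ± 3.77 CPM per kb (SD, n = 3), so the 3 genes lay close together on that scale. Per kb of coding sequence they lay farther apart, at 96.4, 115 and 73.2 CPM per kb. SNRNP40, a further U5 protein, was at 113, 90.9 and 106 CPM.

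PRPF6, which bridges U5 to U4/U6, was at 204, 219 and 197 CPM. PRPF31, a U4/U6 protein mutated in retinitis pigmentosa, was at 53.9, 52.2 and 55.1 CPM, and the PRPF6 to PRPF31 ratio was 3.79, 4.2 and 3.57. Of the PRPF31 exon bases, 32.0% overlap antisense genes. PRPF3 was at 62.9, 68.7 and 75.5 CPM and PRPF4, with which it binds U4/U6, at 109, 111 and 110.1 CPM. The PRPF4 to PRPF3 ratio was 1.73, 1.61 and 1.46 in counts and 2.57, 2.40 and 2.17 per kb of exon, so PRPF4 was the higher on both scales in every library. PRPF4B, a kinase of tri-snRNP proteins, was at 229, 186 and 258 CPM.

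PRPF38A and PRPF38B, the former a protein that joins at spliceosome activation, were at 119.9, 99.99 and 127 and 196, 179.7 and 203 CPM. Their ratio was 0.613, 0.556 and 0.623 in counts and 0.630, 0.572 and 0.641 per kb of exon, while per kb of coding sequence its mean was 1.05. SNRNP27, a small tri-snRNP protein, was at 10.1, 12.6 and 13.8 CPM, below the median gene (log2 difference -1.05, SE 0.13, adjusted p = 6.53e-05). Per kb of exon it could not be told from the median gene, at 5.34 ± 0.821 CPM per kb.

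Of 30 pairs of paralogs or subunits of 1 particle set side by side, the first gene had more counts in all 3 libraries for 20. The order of the pair changed for 8 pairs per kb of exon and for 5 pairs per kb of coding sequence, and it held for the others.

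**Figure D3:**
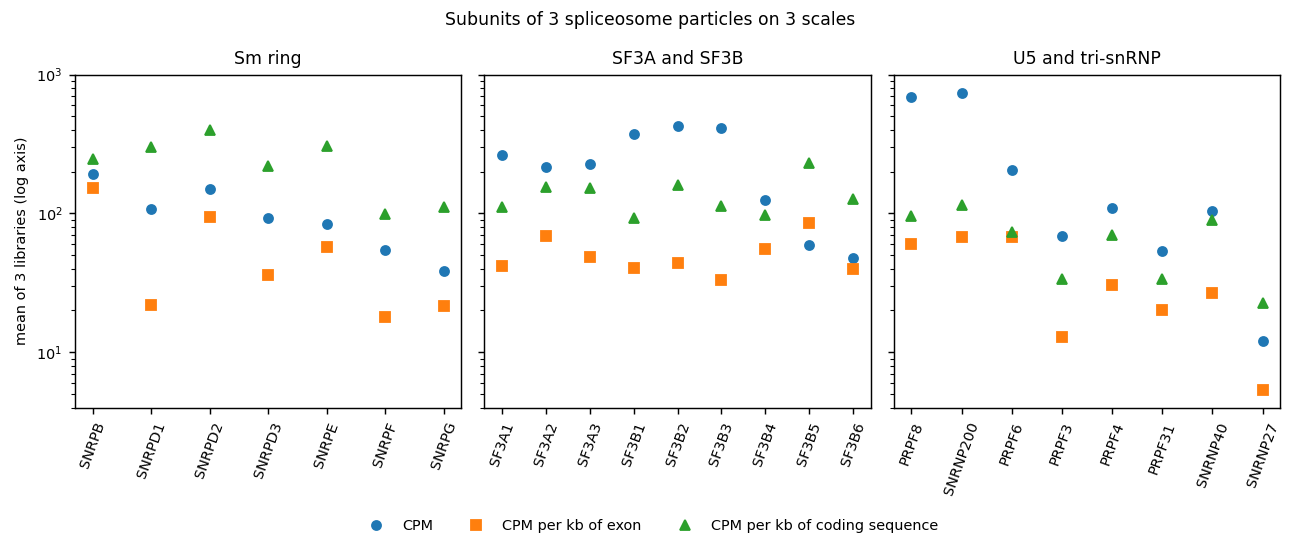
Mean of the 3 libraries (log axis, shared by the panels) for subunits of the Sm ring, of SF3A and SF3B, and of U5 and the tri-snRNP, as CPM (circles), CPM per kb of exon (squares) and CPM per kb of coding sequence (triangles). SNRPN is not drawn. On the coding scale the SF3A and SF3B genes lie between 92.4 and 229, and SNRNP27 is lowest of the tri-snRNP genes on all 3 scales.

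PRPF19, the ubiquitin ligase of the PRP19 complex that stabilises the catalytic core, was at 250.3, 232 and 257 CPM. PRPF18, which acts at the second catalytic step, had 95, 126 and 93 counts, or 3.82, 2.95 and 3.88 CPM, and lay below the median gene (log2 difference -2.81, SE 0.16, adjusted p = 4.46e-07). Of its coding windows, 59.5% lie in the overlapping annotation AL157392.5, so its value is uncertain.

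The minor spliceosome removes a small class of introns and has its own U11/U12 proteins. SNRNP48 was at 54.2, 59.6 and 60.0 CPM, above the median gene. SNRNP25 was at 14.4, 11.8 and 16.1 CPM and SNRNP35, the counterpart of U1-70K, at 16.9, 15.9 and 14.4 CPM. Both lay below the median gene, with log2 differences of -0.84 (adjusted p = 1.94e-04) and -0.67 (adjusted p = 3.16e-04), and per kb of exon the 3 genes had 9.92, 4.60 and 3.06 CPM per kb. Antisense genes overlap 40.1% of the SNRNP35 exon bases.

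Of the 76 detected members, 63, or 82.9%, varied between libraries by more than counting error, against 68.7% of all detected genes (chi-square test of homogeneity against library size, Benjamini-Hochberg adjusted). Without replicate 2 the count of varying members was 38. The test calls more genes at higher counts, from 53.3% of genes under 25 CPM to 99.0% of genes above 400 CPM, and all 12 members above 400 CPM were called. The spread itself was small: the median SD was 0.121 on the log2 scale for the members and 0.169 for all detected genes. In classes of like CPM the members' median was lower than that of all genes under 25 CPM (0.219 against 0.236), from 25 to 50 CPM (0.100 against 0.140) and above 400 CPM (0.096 against 0.119). It was about equal from 50 to 100 and from 100 to 200 CPM, and higher from 200 to 400 CPM (0.146 against 0.111).

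Replicate 2, the most deeply sequenced library, was the lowest of the 3 for 47 members, 61.8%, against 36.4% of all detected genes. The median deviation from a gene's own mean was -0.08 in that library on the log2 scale. Replicate 3 was the highest library of 32 varying members, 42.1%, against 22.5% of all detected genes. By group, replicate 2 was the lowest for 17 of 21 detected hnRNP genes and for 4 of 12 SR genes, and replicate 3 was the highest for 9 of 12 SR genes and for 1 of 8 Sm genes, against 32.5% of all detected genes, varying or not. The difference between these groups was not tested, and neither was the part of sequencing depth.

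**Figure D4:**
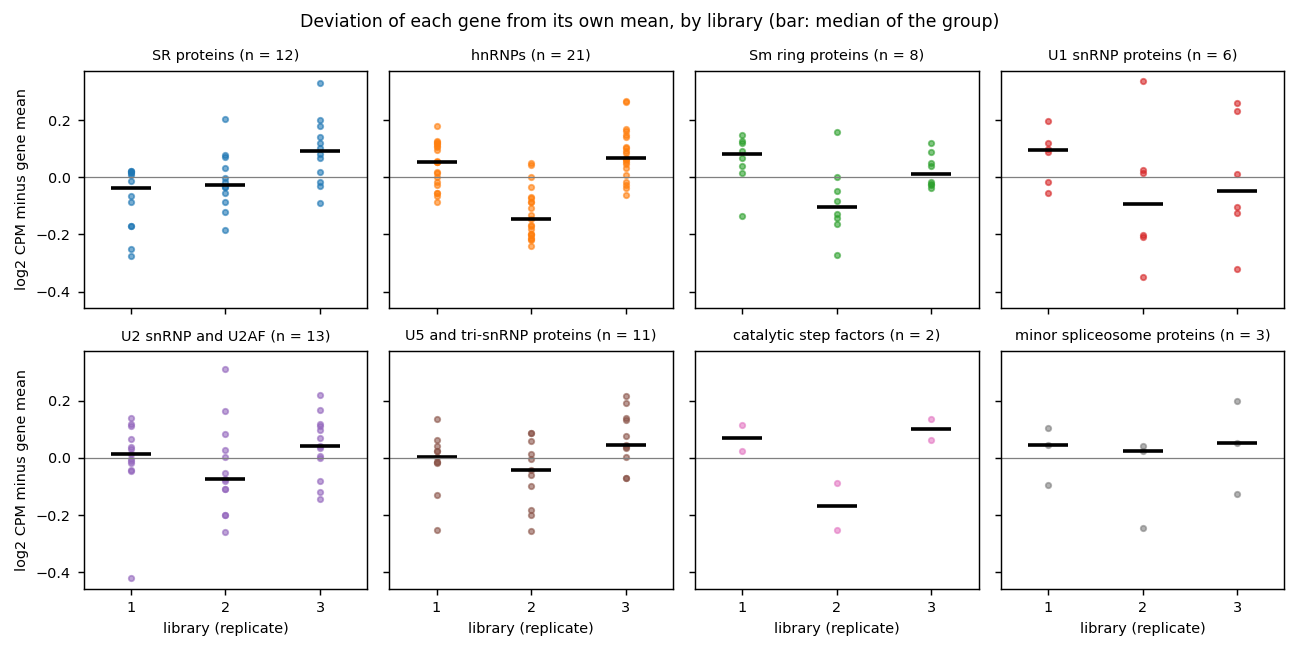
Deviation of each detected member from its own mean (log2 CPM, vertical axis) in replicates 1, 2 and 3, with 1 panel for each role group and a bar at the group's median. The hnRNP median is -0.15 in replicate 2, and the SR protein median is 0.09 in replicate 3.

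Per RefSeq, the ETS motif CCGGAAG (either strand) stood in 23 of the 70 matched member promoters from 250 bases before to 50 after the start, 32.9%, against 18.1% of 10471 promoters of detected genes and 10.7% of all 27305 promoters. By role, it stood in 9 of 12 promoters of U2 particle and U2AF genes (SF3A1, SF3A2, SF3A3, SF3B2, SF3B4, SF3B6, SNRPA1, SNRPB2 and U2AF2) and in 4 of 7 of Sm genes (SNRPB, SNRPD2, SNRPE and SNRPG). It stood in 3 of 23 promoters of hnRNP genes and 2 of 11 of SR genes. The CCAAT box stood in 32 member promoters, 45.7%, against 36.8% of detected genes, and 15 of the 32 belong to hnRNP genes. The GC box GGGCGG stood in 62.9% against 68.0%, the TATA box TATAAA in 8.57% against 5.77%, and the E-box CACGTG in 12.9% against 10.1%, with 7 of 9 E-box promoters in hnRNP genes. An NRF1-like motif was in none of the 70, against 2.24% of detected genes, and a ZBTB33-like motif in 2, 2.86%, against 0.860%. A match describes letters in this window and not binding. The ETS motif also stood in the promoters of SNRNP27 and PRPF18, which lay below the median gene.

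The rest of the splicing machinery was followed through 13 further lists. Of these, 145 were detected: 113 lay above the median gene in CPM, 22 lay below it and 10 could not be told from it, against 45.9% above and 46.1% below for all detected genes. On the scale per kb of exon, 105 lay above and 23 below. Levels in these lists are CPM in the 3 libraries, and they are not set against each other. All 9 genes for branch point and 3′ splice site factors lay above the median gene on both scales, with PHF5A, the SF3B subunit at the branch site pocket, at 35.1, 29.3 and 32.8 CPM and SF1, the branch point binding protein, at 366, 434 and 433 CPM. All 6 U1 auxiliary factors lay above in CPM and 5 per kb, with LUC7L2, not distinguished per kb, at 34.1, 31.5 and 33.5 CPM and RBM25 at 1011, 864 and 1319.7 CPM. Of the LUC7L2 coding windows, 94.7% lie in overlapping annotated genes, so the LUC7L2 value is uncertain. All 13 SR-related genes lay above in CPM and 12 per kb, where SREK1 was not distinguished, with TRA2A at 49.6, 55 and 63.5 CPM and SRRM2, a scaffold of nuclear speckles, at 803, 819 and 816 CPM.

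In the LSm ring, which binds U6, 5 of 7 genes lay above on both scales, with LSM4 at 121, 101 and 93.1 CPM and LSM6, below, at 15.5, 14.7 and 15.7 CPM. Of the helicases that drive the spliceosome, 9 of 11 lay above on both scales, with DHX15 at 293, 252 and 297 CPM and DHX35, not distinguished, at 27.1, 22.7 and 28.5 CPM. DDX39B, which loads at early complexes, was listed at 0 counts in every library. All of its coding windows lie in the overlapping readthrough gene ATP6V1G2-DDX39B, listed at 0 as well, so this is a count by name and not a level.

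Among other tri-snRNP proteins 9 of 10 lay above on both scales, with TXNL4B, below in CPM, at 16.2, 13.9 and 23.1 CPM and EFTUD2, the U5 GTPase, at 230.5, 221 and 261 CPM. Of the PRP19 complex and its relatives 15 of 18 lay above in CPM and 16 per kb, with WBP11 at 289, 285 and 286 CPM and ISY1, below, at 10.0, 12 and 10.3 CPM. Of the ISY1 coding windows, 99.5% lie in the overlapping gene ISY1-RAB43, listed at 0 counts, so the ISY1 value is uncertain. The 4 second step factors all lay above on both scales, with DHX8 at 136, 138 and 157 CPM and CDC40 at 50.4, 56.0 and 58.3 CPM, unlike PRPF18. Of 8 other minor spliceosome genes 4 lay above and 2 below on both scales, with ZCRB1 at 72.2, 68.8 and 66.0 CPM and ZMAT5 at 2.54, 3.84 and 2.34 CPM.

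Kinases and carriers of SR proteins lay above in 7 of 9 cases in CPM, with 2 below, but in 5 per kb of exon, with 4 below, where CLK3 and DYRK1A had changed sides. SRPK1, the cytoplasmic SR kinase, was at 281, 245 and 267 CPM and the muscle-enriched SRPK3 at 5.68, 6.34 and 7.64 CPM. Exon junction complex genes lay above in 3 of 5 in CPM and 4 of 5 per kb, with CASC3 at 277, 317 and 282 CPM and MAGOHB, below, at 13.2, 13.2 and 20.8 CPM. For assembly of Sm rings, 13 of 17 lay above in CPM and 14 per kb, with STRAP at 425, 382 and 432 CPM and GEMIN8, below in CPM, at 16.3, 18.2 and 12.1 CPM. SMN1, the core of the SMN complex, had 457, 740 and 438 counts and its near-identical copy SMN2 had 0, 3 and 0, so these 2 names are uncertain in the same way as U2AF1 and U2AF1L5. Over all 13 lists, 8 genes shared at least 50% of their windows with another gene, of which 1 lay above the median gene, 4 below and 3 were not detected.

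**Figure D5:**
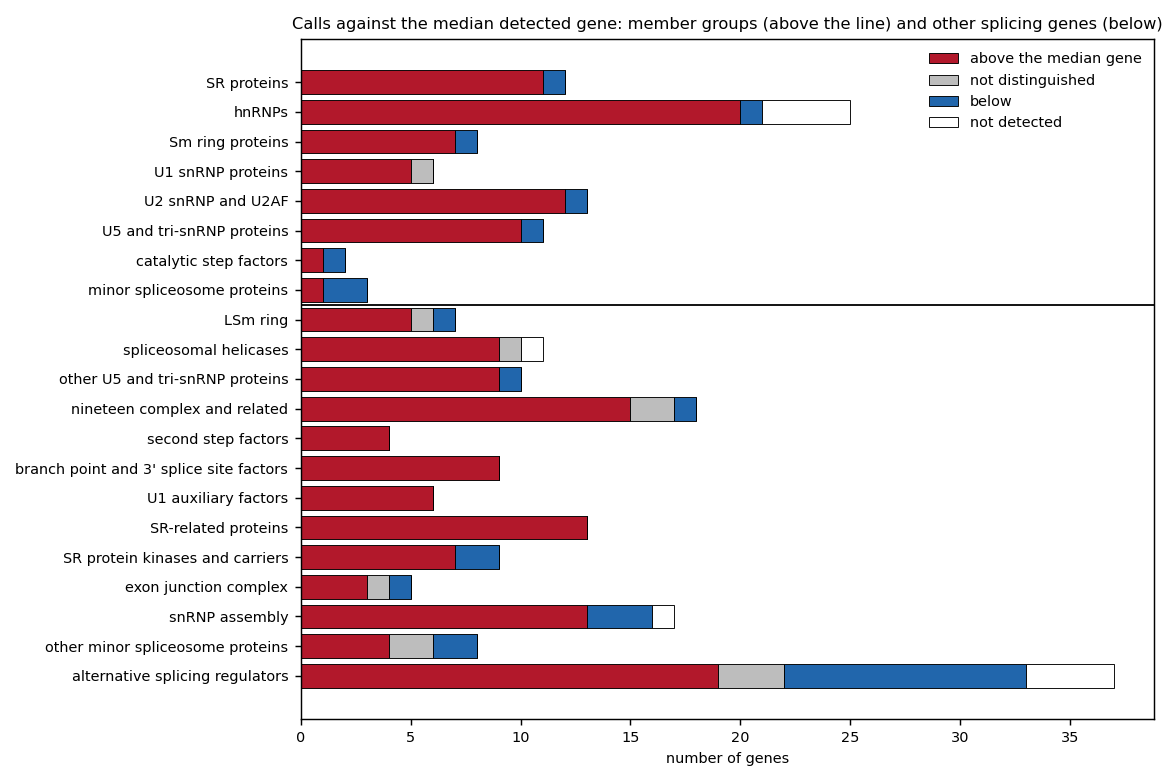
Number of genes, by CPM, in each member group (above the black line) and each further list of splicing genes (below it) that lay above the median detected gene (red), were not distinguished from it (grey), lay below it (blue) or were not detected (white). Red fills the whole bar of the second step, branch point, U1 auxiliary and SR-related lists, and the alternative splicing regulators hold 11 of the 22 genes below.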

How the data were processed

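RNA of 3 H82R libraries, which form 1 group, was analysed. The authors deposited raw read counts per gene symbol in 1 table, and its columns were matched to the libraries by title. The submitters' processing notes name STAR 2.6.1b and hg38. Not given in the sources used here are the counting program, its annotation and strandedness. Another 13 names that a spreadsheet had turned into dates were left out.

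Effective library sizes came from edgeR 4.0.16 (TMM factors 0.993, 1.00 and 1.00). Log2 CPM had a prior count of 2. With 1 group there is no contrast, so count models were not fitted. limma-trend (limma 3.58.1, R 4.3.3; two-sided, one-sample moderated) tested the distance from the library's median detected gene, and a chi-square test of homogeneity the spread, both with Benjamini-Hochberg adjustment over 14612 detected genes and a threshold of 0.05. The fits were tested on simulated data. Intervals and floors cover counting error only, since PCR duplicates cannot be told from molecules without identifiers.

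Lengths, positions and shared 50-base windows of coding sequence came from the GENCODE annotation of GRCh38, which matched all 80 members and all further list genes, and promoters from RefSeq. Alternatives were DESeq2 1.42.0 size factors, plain totals, other filters, references, lengths and member sets, limma-voom, and leaving out each library. Length per coding kb and the set without SNRNP symbols were chosen after seeing the data. Members and lists were chosen with earlier results of these data known. Per-library values were given, in each role group, for the highest and lowest member, those not above the median gene, pair members and the 5 widest spreads, and for the highest, lowest and undetected gene of each list. Some results that these rules name entered every test and count and are not given here.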

Additional observations from a re-analysis of the deposited data

How the results depend on the processing

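The count of members above the median gene stayed within 1.5 times 67 under every alternative run, with 66 to 67 when 1 library was left out and 54 against the upper quartile of detected genes, and so did the count of pairs whose first gene was higher. No paired analysis was possible because the labels form 1 group. Members below the median gene numbered 4 when 1 count in any library sufficed, 18 against the upper quartile, 4 without members that have copies or overlaps and 5 without the SNRNP symbols, against 8. Varying members numbered 38 to 60 when 1 library was left out, with 38 without replicate 2, against 63. Genes of the further lists above the reference fell from 113 to 69 against the upper quartile. The median level of the members, 7.42 log2 CPM, became 7.34 to 7.48 when 1 library was left out, 7.54 with at least 1 CPM required, 7.30 with any count, 7.56 without copies or overlaps, 7.54 without SNRNP symbols and, on its own scale, 5.19 per kb of exon.

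In CPM against the median detected gene, or per kb of exon, single genes changed sign as follows. Sign changes against other references or per kb of coding sequence are not listed by gene. The log2 distance of PRPF40B from the median gene was -0.32 to 0.092 when 1 library was left out, and that of HNRNPUL2 was -0.10 with at least 1 CPM required. With any count sufficing, the reference fell and HNRNPA1L2 was at 0.76, PRPF40B at 2.14, SNRNP25 at 1.45, SNRNP27 at 1.24, SNRNP35 at 1.62 and SRSF12 at 1.55. Per kb of exon, HNRNPA1L2 was at 0.19 and HNRNPUL2 at -0.049, neither of them distinguished from the median gene. Mean log2 ratios that changed sign per kb of exon were SNRPD1 to SNRPD3 (-0.73), SNRPF to SNRPG (-0.27), SNRPA to SNRNP70 (0.0017), SF3A1 to SF3A3 (-0.21), SF3B1 to SF3B3 (0.28), SF3B2 to SF3B4 (-0.34), HNRNPF to HNRNPH1 (0.97) and PRPF4B to PRPF4 (-0.11). Per kb of coding sequence they were SNRPF to SNRPG (-0.18), SF3A1 to SF3A3 (-0.46), HNRNPC to HNRNPK (0.29), HNRNPR to HNRNPM (0.14) and PRPF38A to PRPF38B (0.073). The tally of member distances covers the alternatives in CPM against the median of all detected genes, and no change of reference or length. Within it, 670 distances kept direction and call, 8 reversed, 3 lost the call and 2 gained one. Depth limits SNRPN, U2AF1 and PRPF18, with 22 to 126 counts a library.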

Other observations

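Of 37 regulators of alternative splicing outside the SR and hnRNP families, 19 lay above the median gene, 11 lay below it, 3 could not be told from it and 4 had too few counts (CPM, limma-trend, the same fit). With length taken into account, per kb of exon, 12 lay above and 13 below. Of all detected genes, 45.9% lay above and 46.1% below in CPM, and 45.3% and 45% per kb. PTBP1, the polypyrimidine tract binding protein of dividing cells, was at 652, 673 and 679 CPM in replicates 1, 2 and 3, and its neural paralog PTBP2 at 113, 117 and 149 CPM. SRRM4, the neuronal microexon activator, was at 43.9, 60.1 and 36.7 CPM, above the median gene in CPM and not distinguished from it per kb. The neuron-specific RBFOX3 was at 0.684, 0.702 and 0.501 CPM and lay below it, as did the epithelial regulators ESRP1, at 2.09, 3.91 and 1.92 CPM, and ESRP2, at 1.97, 2.43 and 1.84 CPM. RBFOX1 was at 26.7, 15.7 and 9.47 CPM (17.3 ± 8.70 CPM, SD, n = 3), so its libraries differed widely. The genes with too few counts were NOVA2 (1, 7 and 4 counts), CELF5 (3, 4 and 0), CELF6 (4, 9 and 2) and KHDRBS2 (9, 26 and 15). All coding windows of CELF6 also lie in overlapping annotated genes, so its counts are uncertain.

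MATR3, a nuclear matrix RNA-binding protein, was at 7.45, 11.2 and 10.4 CPM and RBM4 at 2.82, 4.05 and 3.55 CPM, and all coding windows of both lie in overlapping annotated genes as well, so both values are uncertain.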
